A study of Mus musculus with 20 samples.

Results

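Lysosomal degradation was followed in mouse bone marrow RNA through 8 genes. They were Gla, Hexa and Gaa, which encode glycosidases, Ctsl, Ctsb, Ctsd and Ctss, which encode cathepsin proteases, and Lamp2, which encodes a glycoprotein of the lysosomal membrane. The 8 members were given by symbol, each symbol matched 1 gene of the count table, and they are 8 of its 37620 genes. They were chosen by their measured gene counts across the groups, with Gla and Ctsl set against the rest, so their levels and fold changes are described here without a test. The values that are tested are those the choice of members did not use, namely the share of each splice junction within a member, the use of the alternative last exons of Lamp2, and other genes of the lysosome and related pathways. The lists of those other genes were drawn up with earlier results of these data known, so they are not an independent check.

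Lysosomes are acidic vesicles in which hydrolases take apart glycolipids, glycogen, glycoproteins and proteins delivered by endocytosis, phagocytosis and autophagy. The hydrolases are made in the endoplasmic reticulum, most receive a mannose 6-phosphate tag, and receptors carry them to the lysosome, where a proton pump keeps the pH low. Many of their genes are regulated together by the MiT/TFE transcription factors (TFEB, TFE3, TFEC and MITF), which bind E-box sequences near start sites. In bone marrow, neutrophils, monocytes and macrophages are rich in lysosomal proteases, which take part in microbial killing, antigen processing and the clearance of dying cells.

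The RNA came from bulk bone marrow of 20 recipient mice in 4 groups of 5. The mice had been transplanted, after irradiation, with marrow that carried the rtTA activator and a doxycycline-inducible transgene for the splicing factor U2AF1, either U2AF1(WT) or U2AF1(S34F), and infusions gave them vehicle or sudemycin D6, a small molecule that targets the SF3b complex of the spliceosome. All groups received doxycycline chow (625 ppm), the transgene was induced for 7 days after more than 6 weeks of engraftment, and the infusions ran over the last 5 of these days at 50 mg per kg per day for the drug. The recipients were (C57BL/6 × 129S4Sv/Jae)F1 mice of 6 to 12 weeks of age and the donors were 8 to 12 weeks of age, and the donor cells of 2 to 3 mice were pooled before transplantation, so the 5 mice of a group may share donors. The transgene is expressed beside the endogenous gene, and the control mice carry a U2AF1 transgene too. Recipient mice also keep their own non-haematopoietic marrow cells.

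Gene counts summed to between 41145892 and 62138138 per mouse, and junction reads to between 34384214 and 64813149. All 10 U2AF1(WT) mice had an Xist count of 39145 to 78640 and all 10 U2AF1(S34F) mice one of 1 to 8, and the Y-linked counts ran the other way, from 0 to 4 against 10270 to 15034. Genotype and sex therefore cannot be told apart in any genotype comparison, and Gla and Lamp2 lie on the X chromosome. The drug comparisons within a genotype do not have this limit. Vehicle-treated U2AF1(WT) mouse 3 stood apart in its junction reads, with 81.4 annotated junction reads per 100 gene counts over all genes. The next lowest mouse (sudemycin-treated U2AF1(S34F) mouse 12) had 90.7 and the highest had 102.5. The low ratio was not confined to mouse 3 in its group. Vehicle-treated U2AF1(WT) mice 1, 4 and 5 had 95.6, 93.8 and 95.0, and mouse 2 had 99.97. In the other groups, sudemycin-treated U2AF1(WT) mouse 12 had 95.7. Apart from the mouse at 90.7, the remaining mice there had 98.1 to 102.5. In bulk RNA, fewer cells of a type and less RNA per cell cannot be told apart. Neutrophil markers were abundant in every group, with the 11 genes of that list summing to at least 59909 CPM in each mouse (gene counts scaled to a common library total by TMM factors).

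Per kilobase of exon, Ctsd was the most abundant member and Gla and Gaa the least abundant. Over the 20 mice the mean level was 218 CPM per kb for Ctsd (an aspartic protease), 117 for Hexa (the alpha subunit of beta-hexosaminidase, which degrades GM2 ganglioside), 111 for Ctss (a cysteine protease of antigen-presenting cells) and 79.2 for Ctsb (a cysteine protease). Lamp2 had 33.5 and Ctsl, a cysteine protease, 17.2. Gla, which encodes alpha-galactosidase A, the enzyme that removes terminal galactose from globotriaosylceramide, had 5.51, and Gaa, the acid alpha-glucosidase that breaks down lysosomal glycogen, had 5.15. The precision behind these levels differs, since Gla had 613 to 1576 and Gaa 849 to 1688 counts per mouse, while Ctsd had 19024 to 35441. The order between Gla and Gaa was set by 1 group, since Gla had 8.59 ± 0.69 (SD, n = 5) CPM per kb in vehicle-treated U2AF1(WT) mice and Gaa 5.74 ± 0.58, whereas in the other 3 groups the mean of Gla was the lower one.

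**Figure D1:**
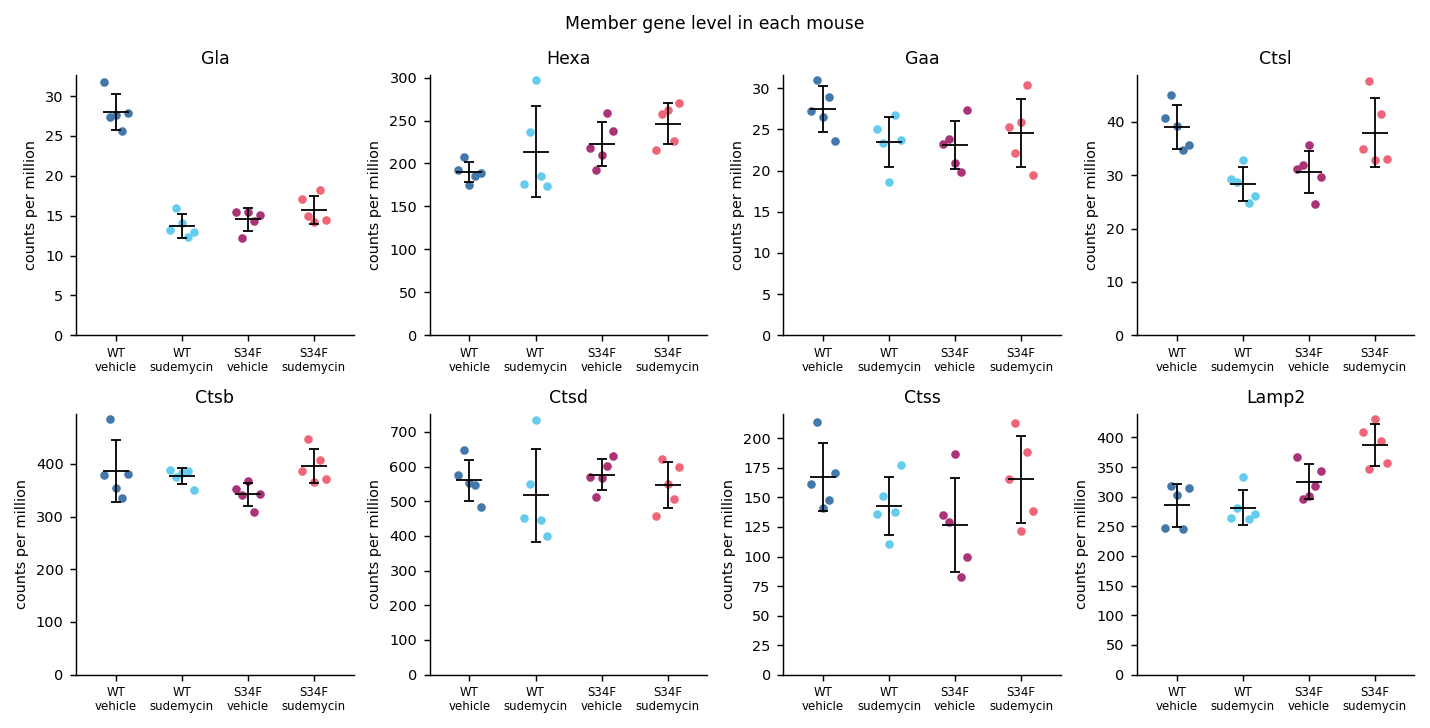
Level of each member in CPM (y axis, from 0) for each mouse (points) of the 4 groups (x axis), with the mean (long bar) and SD (error bars, n = 5). Gla in vehicle-treated U2AF1(WT) mice lies at 25.6 to 31.7, above all other mice, which lie at 12.2 to 18.2.

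Gla was highest in vehicle-treated U2AF1(WT) mice and lower, by about the same amount, in each of the other 3 groups. In CPM, the 5 vehicle-treated U2AF1(WT) mice had 31.7, 27.4, 27.6, 25.6 and 27.8. The sudemycin-treated U2AF1(WT) mice had 13.2, 16.02, 14.1, 12.3 and 12.9. No mouse of the second group reached the lowest of the first. Vehicle-treated U2AF1(S34F) mice had 15.5, 12.2, 15.5, 14.3 and 15.1, and sudemycin-treated U2AF1(S34F) mice had 17.0, 14.9, 14.2, 18.2 and 14.5. The group means were 28.0 ± 2.2, 13.7 ± 1.4, 14.5 ± 1.4 and 15.8 ± 1.8 CPM (SD, n = 5 each), and the last 3 groups overlapped with each other while the first overlapped with none. The log2 fold change of Gla counts was −1.03 (SE 0.10) for sudemycin in U2AF1(WT) mice, a level 2.05-fold lower, and 0.11 (SE 0.09) for sudemycin in U2AF1(S34F) mice. Between the genotypes it was −0.97 (SE 0.09) under vehicle and 0.16 (SE 0.10) under sudemycin D6. The difference of the 2 drug effects, U2AF1(S34F) minus U2AF1(WT), was 1.12 on the log2 scale (SE 0.13), and leaving out any 1 mouse kept it between 1.07 and 1.19. This difference was part of what chose the gene.

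Spliced reads of Gla varied less between the groups than its gene counts. Its annotated junctions held 11.8 ± 2.3 RPM (reads scaled to a common total of junction reads) in vehicle-treated U2AF1(WT) mice, 9.38 ± 1.47 in sudemycin-treated U2AF1(WT) mice, 9.85 ± 1.13 in vehicle-treated U2AF1(S34F) mice and 11.4 ± 1.4 in sudemycin-treated U2AF1(S34F) mice (SD, n = 5 each), and the first group overlapped with each of the others. On junction reads the log2 fold change of Gla was −0.35 (SE 0.16) for sudemycin in U2AF1(WT) mice and −0.28 between the genotypes under vehicle, both closer to 0 than on gene counts. The ratio of the 2 measures shows where they part. Vehicle-treated U2AF1(WT) mice had 39.1, 55.5, 29.4, 35.8 and 38.5 annotated junction reads per 100 Gla counts. The other 15 mice had 63.1 to 75.8, and the groups did not overlap. The ratio was 39.7 ± 9.7 in the first group, or 42.3 ± 9.0 without mouse 3 (SD, n = 4), against 66.4 ± 4.2, 66.3 ± 2.5 and 70.0 ± 4.1 in the others (SD, n = 5 each). With the ratio scaled to that of each library, it was 1.58-fold higher in sudemycin-treated than in vehicle-treated U2AF1(WT) mice. Between the genotypes under vehicle the same ratio was 1.57-fold higher in U2AF1(S34F) mice. The ratio has in its denominator the counts that chose the gene, so it is given as a description. The Gla counts of vehicle-treated U2AF1(WT) mice thus held fewer junction reads for their number. Which part of the gene these reads fell on was not tested, since the tables give 1 gene count per mouse.

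**Figure D2:**
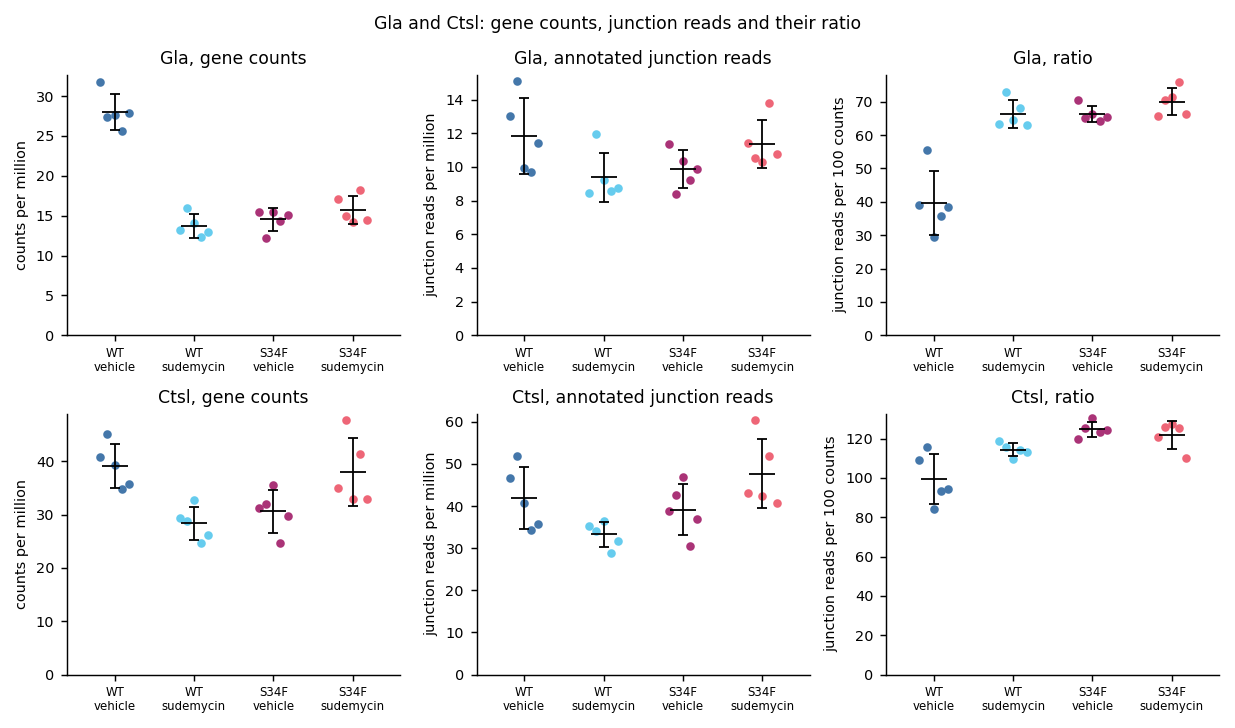
Gla (top row) and Ctsl (bottom row) in each mouse (points) of the 4 groups (x axis), as gene counts in CPM, as annotated junction reads in RPM and as junction reads per 100 gene counts (y axes, from 0), with mean and SD (n = 5). For Gla the ratio lies at 29.4 to 55.5 with U2AF1(WT) and vehicle and at 63.1 to 75.8 elsewhere, while the junction reads of the groups overlap.

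No junction of Gla passed the test for its share of the gene's junction reads. All 6 tested junctions had an FDR above 10% in all 5 comparisons, and the lowest was 0.143 (edgeR's diffSpliceDGE, Benjamini-Hochberg over all junctions), for the first intron between the genotypes under vehicle. That junction (mm9 chrX:131130988-131135277) carried 19.3 ± 3.5% of Gla junction reads under vehicle in U2AF1(WT) mice against 11.1 ± 3.6% in U2AF1(S34F) mice (SD, n = 5 each). With as few as 26 reads on a junction in a mouse, a small change in Gla was not detectable at this depth.

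Gla lies in a dense stretch of the X chromosome (mm9 chrX:131122688-131135664, minus strand), with neighbours on the opposite strand at both ends. Rpl36a, a ribosomal protein gene, ends 86 bp from the 3′ end of Gla, and Hnrnph2, which encodes an RNA-binding protein, starts 53 bp from its 5′ end. Neither neighbour shared the pattern of Gla. Rpl36a had 125 ± 29 and 128 ± 8 CPM in vehicle- and sudemycin-treated U2AF1(WT) mice and 179 ± 4 and 174 ± 15 in the corresponding U2AF1(S34F) mice. Its levels rose between the genotypes under vehicle (log2 0.50, SE 0.12, edgeR adjusted p = 0.00700) and under sudemycin D6 (0.40, SE 0.07, adjusted p = 0.00229), in the direction opposite to Gla under vehicle, and its log2 fold change for sudemycin in U2AF1(WT) mice was 0.04 (adjusted p = 0.950). Hnrnph2 was called only between the genotypes under sudemycin D6 (0.20, SE 0.06, adjusted p = 0.0178) among the 6 tests run on it.

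The genes whose log2 CPM followed Gla most closely over the 20 mice, among 12226 genes with a mean of at least 1 CPM, were Ccl4 (Pearson's r = 0.881), Plk2 (0.879) and the predicted gene Gm17024 (0.875). Each of them was highest in vehicle-treated U2AF1(WT) mice. Ccl4, which encodes a chemokine, had a mean of 5.82 CPM there and 1.31, 1.42 and 0.95 in the other groups, and Plk2, which encodes a polo-like kinase, had 10.5 CPM and 4.27, 3.89 and 2.99. The mice within a group share treatment and genotype, so these correlations describe 4 group means as much as 20 mice.

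Ctsl was higher in vehicle-treated U2AF1(WT) and in sudemycin-treated U2AF1(S34F) mice than in the other 2 groups, so that sudemycin went with a lower level in one genotype and a higher one in the other. Ctsl encodes cathepsin L (mm9 chr13:64464522-64471614, minus strand), a protease that degrades endocytosed proteins and matures other cathepsins. In CPM, vehicle-treated U2AF1(WT) mice had 40.7, 45.1, 39.3, 34.7 and 35.7. Sudemycin-treated U2AF1(WT) mice had 29.4, 28.7, 32.8, 24.8 and 26.2. These groups did not overlap. Vehicle-treated U2AF1(S34F) mice had 31.2, 31.9, 35.6, 24.6 and 29.7, and sudemycin-treated U2AF1(S34F) mice had 35.0, 47.7, 32.9, 41.4 and 33.0. The highest vehicle-treated mouse was above 3 of the 5 drug-treated mice here. The means were 39.1 ± 4.2, 28.4 ± 3.1, 30.6 ± 4.0 and 38.0 ± 6.5 CPM (SD, n = 5 each). The log2 fold change for sudemycin was −0.46 (SE 0.10) in U2AF1(WT) mice and 0.30 (SE 0.12) in U2AF1(S34F) mice, and their difference was 0.74 (SE 0.16), with a range of 0.67 to 0.83 over the fits that leave out 1 mouse. Between the genotypes it was −0.37 (SE 0.10) under vehicle and 0.38 (SE 0.12) under sudemycin D6.

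Unlike for Gla, the annotated junction reads of Ctsl followed its gene counts in the drug comparisons, with log2 fold changes of −0.34 and 0.28. Between the genotypes under vehicle they gave −0.11, closer to 0 than the −0.37 of the gene counts. Ctsl had 99.4 ± 12.7 junction reads per 100 counts in vehicle-treated U2AF1(WT) mice and 114 ± 3, 125 ± 4 and 122 ± 7 in the others (SD, n = 5 each), and mouse 3, whose whole library was low in junction reads, had the lowest value, 84.4. None of the 7 tested Ctsl junctions passed FDR below 10% in any comparison, with a lowest adjusted p of 0.329 (edgeR). The nearest protein-coding neighbour, the kinase gene Cdk20, lies 62235 bp away and passed the threshold in none of its 6 tests.

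Monocyte markers had higher mean sums in the same 2 groups as Ctsl. The 7 genes of that list summed to 1862 to 2842 CPM in vehicle-treated and 1735 to 2061 in sudemycin-treated U2AF1(WT) mice, and to 1522 to 2342 in vehicle-treated and 2093 to 2931 in sudemycin-treated U2AF1(S34F) mice, and none of the 7 was at 0. In single genes, 0 of 7 passed the test for sudemycin in U2AF1(WT) mice (median log2 fold change −0.49), beside 3.07% of all genes (edgeR, FDR below 10%). With sudemycin in U2AF1(S34F) mice 2 of 7 rose (median 0.42), beside 4.94% of all genes. Between the genotypes 3 of 7 fell under vehicle, beside 19.8% of all genes. Under sudemycin D6 3 rose and 1 fell, beside 17.2% and 19.6%. With 7 genes, nothing is read from these counts. Macrophage markers did not follow the same order, with means of 543, 571, 634 and 602 CPM over 11 genes. The 3 genes most like Ctsl over the 20 mice were Stard9 (r = 0.884), Dusp22 (0.871) and Cd68 (0.836), the last a lysosomal membrane glycoprotein of monocytes and macrophages, with 46.4, 37.02, 37.2 and 45.6 CPM in the 4 groups in the order given above. The part of a shift in cell types in the Ctsl values was not tested.

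The other cysteine cathepsins had smaller differences or wider spreads. Ctss (mm9 chr3:95330708-95360325, plus strand) had means of 167 ± 29, 143 ± 24, 127 ± 40 and 165 ± 37 CPM in the 4 groups. It had log2 fold changes for sudemycin of −0.23 (SE 0.13) and 0.37 (SE 0.22), but every pair of groups overlapped. Over the 20 mice Ctss correlated with Ctsb (r = 0.724) and with Ctsl (r = 0.662), and not closely with Ctsd (r = −0.239). Ctsb (mm9 chr14:63741302-63764758, plus strand) had 387 ± 58, 377 ± 16, 342 ± 22 and 396 ± 33 CPM, and its log2 fold changes lay between −0.19 and 0.20 in the 5 comparisons. The wide spread in vehicle-treated U2AF1(WT) mice came from mouse 2, at 486 CPM, with the other 4 at 335 to 380. Ctsb overlaps Fdft1, a gene of sterol synthesis on the opposite strand, by 769 bp, and Ctss overlaps the pseudogene Hmgb1-ps5 by 557 bp, so reads there are uncertain.

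Ctsd, the aspartic protease and the most abundant member, differed least between the groups. Its means were 561 ± 59, 517 ± 133, 576 ± 45 and 547 ± 67 CPM, every pair of groups overlapped, and its 5 log2 fold changes lay between −0.12 and 0.05. Sudemycin-treated U2AF1(WT) mouse 9 had 735 CPM, with the other 4 mice of its group at 401 to 551. The same mouse was also the highest of its group for Hexa, at 297 CPM, and for Lamp2, at 333. Ctsd (mm9 chr7:149557053-149573943, minus strand) shares 2606 bp with 6330512M04Rik on the same strand, and reads there are uncertain.

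Hexa (mm9 chr9:59387474-59412914, plus strand) had higher means in U2AF1(S34F) than in U2AF1(WT) mice under the same treatment, with overlapping groups. Its log2 fold change between the genotypes was 0.22 (SE 0.09) under vehicle and 0.17 (SE 0.15) under sudemycin D6. In CPM, vehicle-treated U2AF1(WT) mice had 192, 208, 175, 186 and 189, and sudemycin-treated U2AF1(S34F) mice had 215, 257, 263, 227 and 270. These 2 groups, which differ in both drug and genotype, did not overlap, and the log2 fold change was 0.36 (SE 0.08). Sudemycin-treated U2AF1(WT) mice spanned 173 to 297 and vehicle-treated U2AF1(S34F) mice 192 to 259, both overlapping with the first group. Sudemycin alone went with a log2 fold change of 0.17 (SE 0.14) in U2AF1(WT) and 0.13 (SE 0.09) in U2AF1(S34F) mice. Gaa (mm9 chr11:119129201-119146768, plus strand) had 27.4 ± 2.8, 23.5 ± 3.0, 23.1 ± 2.9 and 24.6 ± 4.1 CPM, which put vehicle-treated U2AF1(WT) mice highest on average, as for Gla, but with log2 fold changes of −0.22 (SE 0.11) for sudemycin and −0.27 (SE 0.10) for the genotype under vehicle and with overlapping groups.

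Lamp2 (mm9 chrX:35754534-35809631, minus strand) was highest in sudemycin-treated U2AF1(S34F) mice, with 409, 346, 430, 394 and 357 CPM. Vehicle-treated U2AF1(WT) mice had 247, 318, 302, 246 and 314, and sudemycin-treated U2AF1(WT) mice had 263, 280, 333, 262 and 270. Neither U2AF1(WT) group overlapped with the sudemycin-treated U2AF1(S34F) group. Vehicle-treated U2AF1(S34F) mice lay between, at 367, 297, 301, 319 and 342. The log2 fold change of Lamp2 was −0.02 (SE 0.11) for sudemycin in U2AF1(WT) mice, 0.24 (SE 0.08) for sudemycin in U2AF1(S34F) mice, 0.17 (SE 0.10) between the genotypes under vehicle and 0.42 (SE 0.09) between the genotypes under sudemycin D6. On junction reads the genotype value under vehicle was 0.35, higher than on gene counts. Lamp2 is X-linked, and the sexes of the genotypes differ as given above.

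**Figure D3:**
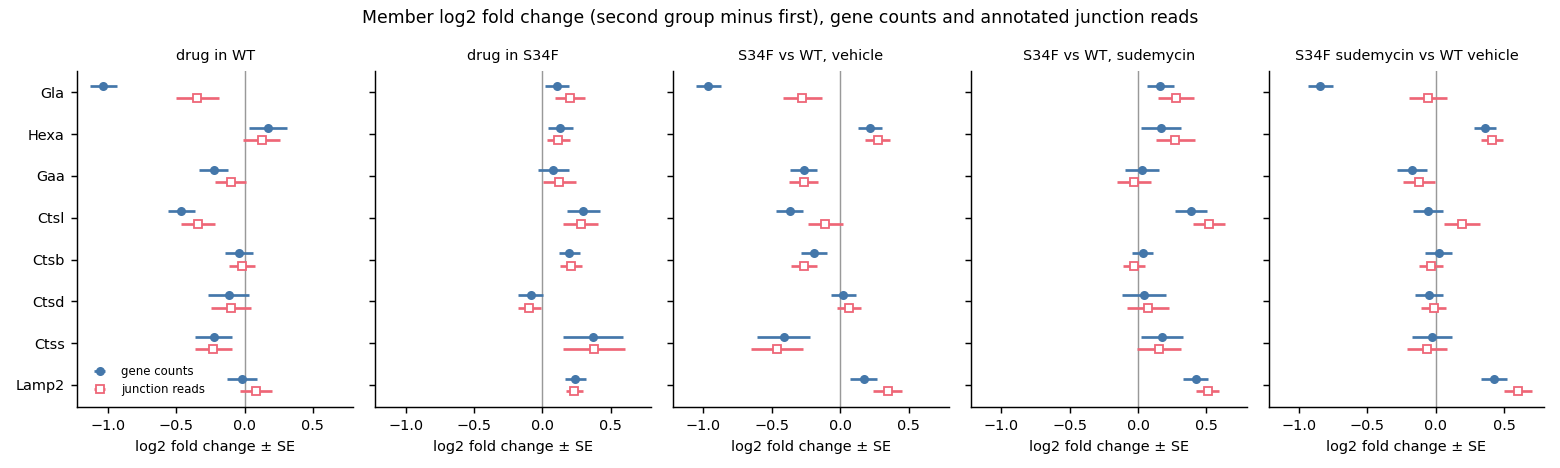
Log2 fold change (x axis, second group minus first) with SE of each member (y axis) in the 5 comparisons (panels), from gene counts (filled circles) and from annotated junction reads (open squares). Gla at −1.03 for sudemycin in U2AF1(WT) mice and −0.97 for the genotype under vehicle is the farthest from 0, and its junction reads lie at −0.35 and −0.28.

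The members past FDR below 10% in each comparison are counted next, and nothing is read from the counts because these contrasts chose the members. For sudemycin in U2AF1(WT) mice 2 of 8 members were called (Gla and Ctsl, both lower), where 3.07% of all 14763 genes tested were (1.18% higher and 1.89% lower). The groups of both members did not overlap, nor did those of 4.27% of all genes. For sudemycin in U2AF1(S34F) mice 1 of 8 was called (Lamp2, higher), beside 10.8% of all genes (4.94% higher and 5.85% lower), and 0 of 8 had groups that did not overlap, beside 7.41%. Between the genotypes 4 of 8 were called under vehicle (Hexa higher, and Gla, Gaa and Ctsl lower), beside 39.5% of all genes (19.7% higher and 19.8% lower), and 1 of 8, Gla, had groups that did not overlap, beside 19.5%. Under sudemycin D6 2 of 8 were called (Ctsl and Lamp2, both higher), beside 36.8% (17.2% higher and 19.6% lower), and both had groups that did not overlap, beside 20.1%. For sudemycin-treated U2AF1(S34F) against vehicle-treated U2AF1(WT) mice 3 of 8 were called (Hexa and Lamp2 higher, Gla lower), beside 50.2% (25.1% higher and 25.1% lower), and the same 3 had groups that did not overlap, beside 23.7%. The member just inside the threshold was Lamp2, at a log2 fold change of 0.24 for sudemycin in U2AF1(S34F) mice, and the one just outside it was Ctss, at −0.41 between the genotypes under vehicle.

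The members' promoters were searched for the E-box CACGTG, the core of the sequence that MiT/TFE factors bind, on both strands (it reads the same on each) from 250 bases before to 50 after the start site. RefSeq promoters of assembly GRCm38.p6 were found for 7 of the 8 members, all but Ctsb. The E-box was present in 4 of these 7 (Gla, Ctsl, Ctsd and Gaa) and in 7.15% of all 32851 promoters of that length. The windows below show each match in capitals with its flanks, on the strand of the gene. Gla and Ctsd hold 2 matches each, and Ctsl and Gaa 1 each. Their part in the levels was not tested.
Gla, first match: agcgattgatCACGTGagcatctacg
Gla, second match: agatctcggtCACGTGagcaactctc
Ctsl: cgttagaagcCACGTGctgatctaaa
Ctsd, first match: tccccCACGTGacctgtatcc
Ctsd, second match: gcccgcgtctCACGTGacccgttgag
Gaa: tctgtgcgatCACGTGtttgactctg

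In GRCm38.p6 the Gla windows lie at chrX:134601217-134601242 and chrX:134601184-134601209, with the matches 227 and 194 bases before the start site. The Ctsl window lies at chr13:64370741-64370766 (236 bases before) and the Gaa window at chr11:119267813-119267838 (140 bases before). Those of Ctsd lie at chr7:142388057-142388077 and chr7:142387910-142387935 (245 and 98 bases before). Gaa is on the plus strand and the other genes are on the minus strand. Both Gla matches and the second of Ctsd lie in TCACGTGA, a string looked for after the sequences had been seen, and TCACGTGA is in 0.974% of all promoters. The same string with G before it and C after it was also searched for. It was in the promoters of 0 of the 7 members and in 0.326% of all promoters. The E-box matches are letters in a window.

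Of the 4 MiT/TFE genes, none passed the test for sudemycin in either genotype (lowest edgeR adjusted p = 0.167, for Tfec in U2AF1(S34F) mice), while Tfeb and Tfe3 fell and Tfec rose between the genotypes. Tfeb had 56.6 ± 6.4 CPM in vehicle-treated and 54.2 ± 5.6 in sudemycin-treated U2AF1(WT) mice, against 44.2 ± 3.1 and 40.6 ± 1.8 in the U2AF1(S34F) mice. It fell by 0.37 on the log2 scale under vehicle (SE 0.09, edgeR adjusted p = 0.00734) and by 0.46 under sudemycin D6 (SE 0.08, adjusted p = 0.00175). Tfe3, which is X-linked, fell by 0.31 under vehicle (SE 0.11, adjusted p = 0.0423, and above 0.1 without vehicle-treated U2AF1(WT) mouse 4, 0.107, or U2AF1(S34F) mouse 1, 0.101) and by 0.27 under sudemycin D6 (SE 0.08, adjusted p = 0.0301). Tfec, the member of the family found mainly in myeloid cells, had 24.1 ± 3.1 CPM in sudemycin-treated U2AF1(WT) and 39.3 ± 3.3 in sudemycin-treated U2AF1(S34F) mice, a rise of 0.67 (SE 0.09, adjusted p = 0.000552), and under vehicle it rose by 0.46 (SE 0.19, adjusted p = 0.0872). The Tfec call under vehicle was lost without vehicle-treated U2AF1(WT) mouse 1, 3, 4 or 5 or vehicle-treated U2AF1(S34F) mouse 1, 5, 7 or 11 (edgeR adjusted p 0.112 to 0.178). Mitf rose by 0.28 under sudemycin D6 (SE 0.11, adjusted p = 0.0720), a call lost without sudemycin-treated U2AF1(WT) mouse 6, 10 or 12 or sudemycin-treated U2AF1(S34F) mouse 6, 9 or 10 (0.117 to 0.155).

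To set the members beside their pathway, 148 other genes in 10 lists were tested. The choice of members did not use them, but the lists were drawn up with earlier results of these data known. The listed genes are called lysosomal here, though the lists also hold cathepsin inhibitors, glycosphingolipid synthesis genes, MiT/TFE factors and mTORC1 regulators. With sudemycin in U2AF1(WT) mice, the comparison in which Gla and Ctsl were lower, 3 of 146 tested genes were called, or 2.05%, where 3.07% of all genes were. Abcb9, a lysosomal peptide transporter, rose from 4.03 ± 0.60 to 7.81 ± 1.91 CPM (log2 0.95, SE 0.18, adjusted p = 0.0187). Slc11a1, the metal transporter NRAMP1 of phagocytes, rose from 96.4 ± 11.8 to 136 ± 10 CPM (log2 0.50, SE 0.10, adjusted p = 0.0226). Manba, the beta-mannosidase, fell by 0.31 on the log2 scale (SE 0.08, adjusted p = 0.0783), a call lost without vehicle-treated mouse 1, 3 or 5 or sudemycin-treated mouse 8, 9, 10 or 12 (edgeR adjusted p 0.126 to 0.209). Among the 17 other glycosidases Manba was the one called, and of the 15 other cathepsins and peptidases none was, with 3 at an unadjusted p under 0.05 beside 1959 of all 14763 genes. The median log2 fold change of all 146 genes was 0.04, beside 0.00 for all genes. DESeq2 called 6 of the lysosomal genes and one model of all mice 9.

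With sudemycin in U2AF1(S34F) mice, 22 of 145 lysosomal genes were called, 15 of which rose and 7 fell, or 15.2% beside 10.8% of all genes. This count was 13 in one model of all mice, 13 without sudemycin-treated mouse 10 and 14 without vehicle-treated mouse 1, and no excess over all genes is read from it. Other cathepsins and peptidases were called most often, with 3 that rose and 3 that fell of 15. Ctsc, which encodes the protease that activates the serine proteases of neutrophil granules, rose from 172 ± 74 to 379 ± 51 CPM (log2 1.12, SE 0.23, adjusted p = 0.0203). Ctsz, a cysteine carboxypeptidase, rose by 0.42 (SE 0.08, adjusted p = 0.0132), and Naaa, which hydrolyses N-acylethanolamines, rose by 0.89 (SE 0.15, adjusted p = 0.00889). Ctse, an aspartic protease, fell from 40.6 ± 4.8 to 25.6 ± 4.7 CPM (log2 −0.68, SE 0.13, adjusted p = 0.0125, and 0.120 in one model of all mice). Ctsw, a protease of T and NK cells, fell by 0.70 (SE 0.21, adjusted p = 0.0708, and 0.135 to 0.147 without vehicle-treated mouse 1 or 3 or sudemycin-treated mouse 9, 10 or 12 and 0.130 in one model of all mice). Rragd, a GTPase of the lysosomal mTORC1 pathway, fell by 0.89 (SE 0.22, adjusted p = 0.0365). In the same comparison 2 of 7 monocyte markers rose, while 3 of 4 progenitor, 3 of 5 dendritic cell, 2 of 5 megakaryocyte, 2 of 6 T and NK cell, 1 of 8 B cell and 1 of 8 erythroid markers fell. None of the 11 neutrophil and 11 macrophage markers was called by edgeR, and over all genes 4.94% rose and 5.85% fell. For sudemycin in U2AF1(WT) mice 2 of 4 progenitor and 2 of 8 B cell markers fell. So did 1 of 6 dendritic cell and 1 of 11 macrophage markers. No listed marker rose in that comparison, and over all genes 1.18% rose and 1.89% fell. The part of cell types in these changes was not tested.

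Between the genotypes under vehicle 66 of 146 lysosomal genes were called (45.2%, beside 39.5% of all genes), of which 27 rose and 39 fell. Under sudemycin D6 55 of 146 were called (37.7%, beside 36.8%), 27 that rose and 28 that fell. The lists were not tested against each other, and among all genes 19.7% rose and 19.8% fell under vehicle. There, of 13 genes of mannose 6-phosphate sorting and maturation 2 rose and 7 fell, of 27 lysosomal membrane genes 2 rose and 9 fell, of 15 other cathepsins and peptidases 1 rose and 6 fell, and of 17 subunits and partners of the V-ATPase, the proton pump, 7 rose and 2 fell. Of 18 genes of MiT/TFE factors and lysosomal mTORC1 regulators 6 rose and 5 fell, of 17 glycosidases 3 rose and 1 fell, of 17 lipid, phosphate and nucleic acid hydrolases with activators 1 rose and 5 fell, of 7 sulfatases 1 fell, and of 8 genes of glycosphingolipid synthesis 2 fell. The directions differed under sudemycin D6, where 17.2% of all genes rose and 19.6% fell. There 3 other cathepsins and peptidases rose and 1 fell, and 2 sorting genes rose and 3 fell. Membrane genes had 6 and 9, V-ATPase genes 4 and 2, and MiT/TFE and mTORC1 genes 4 and 4. Glycosidases had 3 and 1, lipid, phosphate and nucleic acid hydrolases 3 and 2, and cathepsin inhibitors 2 and 1. Sulfatases had 0 and 1 and glycosphingolipid synthesis genes 0 and 4. Under vehicle Ctse fell from 147 ± 28 to 40.6 ± 4.8 CPM, 3.67-fold (log2 −1.87, SE 0.13, edgeR adjusted p = 1.54e-06), and it fell 6.02-fold under sudemycin D6 (log2 −2.59, SE 0.27, adjusted p = 0.000106). Under sudemycin D6 Ctsc rose 1.88-fold (log2 0.91, SE 0.12, adjusted p = 0.000338). Cstb, the cytosolic cathepsin inhibitor cystatin B, rose from 17.7 ± 2.8 to 32.5 ± 3.8 CPM (log2 0.84, SE 0.12, adjusted p = 0.000589).

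Among the lysosomal genes called between the genotypes under vehicle, the largest fold changes were in families whose copies are nearly identical, and their reads are uncertain. Of 7 cathepsin inhibitors, 5 rose and 1 fell between the genotypes under vehicle. Among the stefins, which inhibit cysteine cathepsins and are abundant in neutrophils, Stfa3 rose by 3.59 (SE 1.04, adjusted p = 0.0326) and Stfa2l1 by 1.82 (SE 0.55, adjusted p = 0.0348), and without U2AF1(S34F) mouse 7 these values were 2.02 and 1.01. Stfa2 rose by 3.38 (adjusted p = 0.0502), or by 1.84 without the same mouse 7, and its adjusted p was above 0.1 without vehicle-treated U2AF1(WT) mouse 1 (0.106), 3 (0.108) or 4 (0.105), and Stfa1 fell by 2.65 (adjusted p = 0.0847, and 0.104 to 0.162 without vehicle-treated U2AF1(WT) mouse 1, 2 or 5 or U2AF1(S34F) mouse 1, 3, 5 or 11). Under sudemycin D6 Stfa1 fell by 4.52 (SE 0.93, edgeR adjusted p = 0.00509), or by 3.18 without U2AF1(WT) mouse 9, and was called in all 10 fits that left out 1 mouse. Neutrophil markers rose between the genotypes in 5 of 11 genes under vehicle, beside 19.7% of all genes, and in 3 of 11 under sudemycin D6, beside 17.2%. Under vehicle they summed to 65774 to 72132 CPM in U2AF1(WT) and 84632 to 141995 in U2AF1(S34F) mice. The sums under sudemycin D6 overlapped, at 59909 to 102422 and 75692 to 123561 CPM. The part of neutrophils in the stefin values was not tested. Rnaset2b, 1 of a pair of lysosomal ribonuclease genes, fell under vehicle from 2.50 ± 0.42 to 0.21 ± 0.10 CPM (log2 −3.37, SE 0.29, edgeR adjusted p = 6.99e-06), and under sudemycin D6 it fell by 3.95 (SE 0.26, adjusted p = 2.86e-06).

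For sudemycin-treated U2AF1(S34F) against vehicle-treated U2AF1(WT) mice 76 of 146 lysosomal genes were called (52.1%, beside 50.2% of all genes), 45 that rose and 31 that fell. Over all genes 25.1% rose and 25.1% fell. The V-ATPase list had 10 genes that rose and 1 that fell of 17, with a median log2 fold change of 0.20, beside 0.00 for all genes. Of 7 cathepsin inhibitors 4 rose and 1 fell (median 0.79), and of 8 glycosphingolipid synthesis genes 1 rose and 3 fell (median −0.24). Of 17 glycosidases 5 rose and 3 fell, and of 17 lipid, phosphate and nucleic acid hydrolases 4 rose and 3 fell. Of 18 MiT/TFE and mTORC1 genes 6 rose and 5 fell. As many rose as fell among membrane (7 and 7), peptidase (3 and 3), sorting (4 and 4) and sulfatase (1 and 1) genes. The lists were not tested against each other here. Ctsc rose by 0.87 (SE 0.25, adjusted p = 0.0172) and Ctse fell by 2.54 (SE 0.16, adjusted p = 3.34e-07). Among the near-identical copies, Stfa3 rose by 3.69 (SE 0.91, adjusted p = 0.0126) and Stfa2 by 3.21 (SE 0.89, adjusted p = 0.0204), or by 2.77 and 2.34 without sudemycin-treated mouse 9. Stfa1 fell by 2.79 (SE 0.78, adjusted p = 0.0176), or by 2.13 without vehicle-treated mouse 2, and Rnaset2b fell by 3.65 (SE 0.26, adjusted p = 4.25e-07). For the interaction of genotype and drug, edgeR called 0 of 146 lysosomal genes, with 19 at an unadjusted p under 0.05, and DESeq2 called 2. Over all genes 1144 of 15392 had an unadjusted p under 0.05 and edgeR called 2, or 0.013%. Gla was called too, and nothing is read from that because this pattern helped to choose it.

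**Figure D4:**
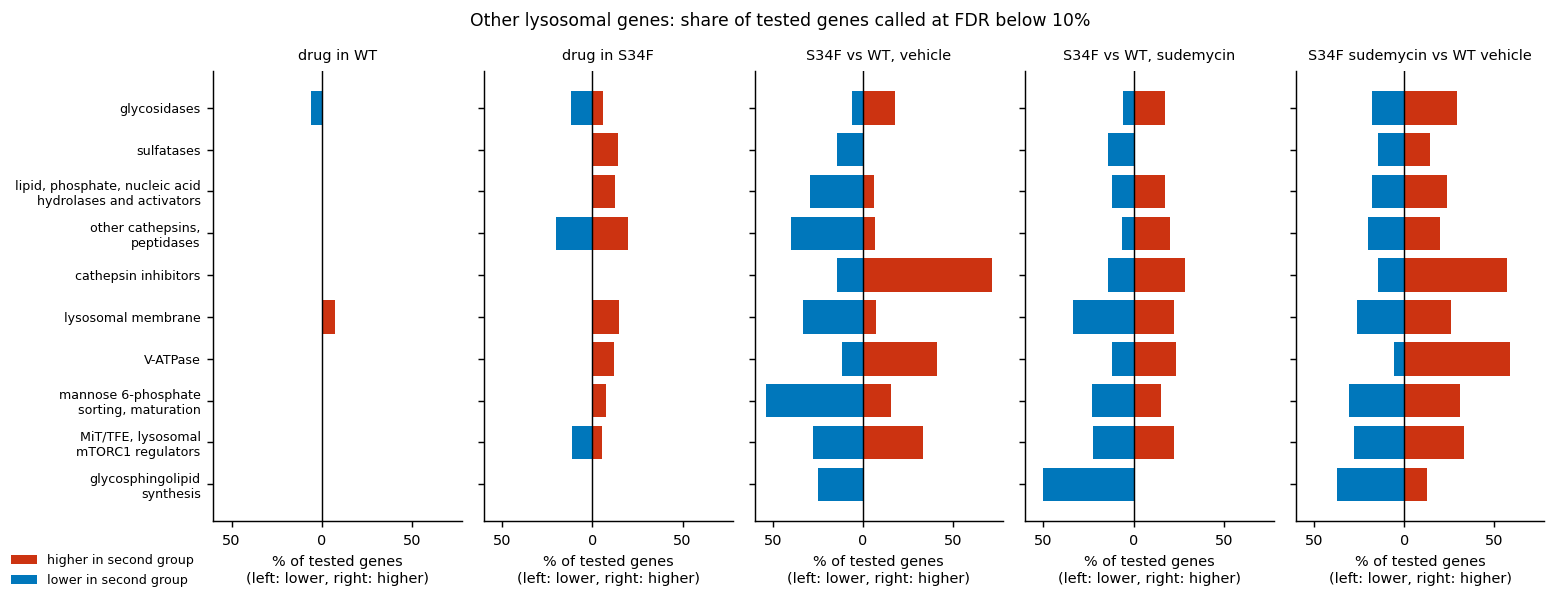
Share of the tested genes of each list (y axis) that rose (right of 0) or fell (left of 0) at FDR below 10% (x axis, % of tested genes) in the 5 comparisons (panels), without the 8 members. For sudemycin in U2AF1(WT) mice 3 of 146 genes are called, beside 3.07% of all genes. Between the genotypes under vehicle 7 of 17 V-ATPase genes rise and 2 fall, and 2 of 13 mannose 6-phosphate sorting genes rise and 7 fall. Of all genes 19.7% rise and 19.8% fall there, and the lists were not tested against each other. Under sudemycin D6 4 of 17 V-ATPase genes rise and 2 fall, and 2 of 13 sorting genes rise and 3 fall. Of all genes 17.2% rise and 19.6% fall in that comparison.

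Few member junctions passed the test for relative usage, none of them for the drug, and no difference from all junctions is read from the counts. Of 82 annotated junctions of the 8 members, 0 were called for sudemycin in either genotype (edgeR's diffSpliceDGE at FDR below 10%, and 0 with limma), where 0.00945% and 0.0206% of all junctions tested were. Between the genotypes 2 of 82 were called under vehicle and 2 under sudemycin D6, beside 1.62% and 2.32%, and 3 of 82 for sudemycin-treated U2AF1(S34F) against vehicle-treated U2AF1(WT) mice, beside 1.67%. They lay in Ctsb, Hexa and Lamp2. U2AF1 binds the AG at the end of the intron, and the acceptor sequences of these junctions (mm9, strand of the gene, with the last 3 intron bases in capitals) are shown with those of the other 2 last exons of Lamp2.
Ctsb, exon 2: gttgcctgtgtcctttcTAGgtgagt
Hexa, exon 6: atctgtgctctgacctcCAGgatgtc
Lamp2, last exon A: tgtcctttctccacatcCAGctcaag
Lamp2, last exon B: acactttttctcacctaCAGcccagg
Lamp2, last exon C: tctctgttcttttctaaCAGctgagg

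They lie at chr14:63752133-63752158 (Ctsb, plus strand), chr9:59405821-59405846 (Hexa, plus strand), and chrX:35758743-35758768, chrX:35775023-35775048 and chrX:35755453-35755478 (Lamp2 A, B and C, minus strand). Of 164571 annotated acceptors that end in AG, 64.2% have C before the AG, 29.6% have T, 5.82% have A and 0.358% have G. Ctsb exon 2 is thus one of the T sites and the other 4 are C sites.

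In Ctsb the junction from exon 1, which is untranslated, to exon 2, which holds the start of the coding sequence, took a smaller share of the gene's junction reads in U2AF1(S34F) mice. The U2AF1(WT) mice had a share of 6.25 ± 1.06% under vehicle and 7.10 ± 0.95% under sudemycin D6, and 4.38 ± 0.37% and 4.55 ± 0.37% were measured in the U2AF1(S34F) mice (SD, n = 5 each), with 681 or more reads in each mouse. No mouse of one genotype overlapped with the other under the same treatment. The relative usage fell by 0.50 on the log2 scale under vehicle (edgeR adjusted p = 0.0559) and by 0.64 under sudemycin D6 (adjusted p = 0.00833). The call under sudemycin D6 was kept in all 10 fits that left out 1 mouse, with edgeR adjusted p of at most 0.0710. That under vehicle was lost without U2AF1(WT) mouse 3, whose library was low in junction reads (0.161), or mouse 4 (0.217), and without U2AF1(S34F) mouse 3, 5, 7 or 11 (0.116 to 0.162). The intron is 10750 bp long, and no other annotated junction of Ctsb was called.

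In Hexa the junction from exon 5 to exon 6 (an intron of 635 bp), both coding, took a larger share in U2AF1(S34F) mice. It was 5.43 ± 1.61% and 4.90 ± 1.38% in vehicle- and sudemycin-treated U2AF1(WT) mice and 8.03 ± 0.72% and 7.74 ± 0.81% in the corresponding U2AF1(S34F) mice (SD, n = 5 each), with at least 435 reads in each mouse. The groups did not overlap under vehicle, and they overlapped under sudemycin D6. The relative usage rose by 0.56 under vehicle (edgeR adjusted p = 0.0205) and by 0.62 under sudemycin D6 (adjusted p = 0.0608). Without vehicle-treated U2AF1(WT) mouse 4 the first adjusted p was 0.272 and without U2AF1(S34F) mouse 11 it was 0.102, and the call under sudemycin D6 was lost without U2AF1(WT) mouse 8, 10 or 12 or U2AF1(S34F) mouse 2, 6, 9 or 12 (0.137 to 0.245). Whether exon 6 was skipped in the other reads was not tested.

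Lamp2 has 3 alternative last exons after its shared exon 8, which give the proteins LAMP2A, a receptor of chaperone-mediated autophagy, LAMP2B and LAMP2C. Most reads that left exon 8 went to exon B in every mouse. In vehicle-treated U2AF1(WT) mice exon A took 27.5 ± 5.0%, exon B 70.9 ± 4.5% and exon C 1.61 ± 0.85% of these reads (SD, n = 5). In sudemycin-treated U2AF1(S34F) mice the shares were 19.6 ± 3.4%, 78.8 ± 3.2% and 1.56 ± 0.31%. The other 2 groups lay between for exon A, with 23.8 ± 3.4% in sudemycin-treated U2AF1(WT) and 21.5 ± 2.3% in vehicle-treated U2AF1(S34F) mice. None of the 15 shares and comparisons passed the threshold (two-sided exact permutation tests, lowest adjusted p = 0.119). With 5 mice per group and 15 tests, 1 comparison at the smallest possible exact p cannot pass alone. No absence of a change is therefore read from this result. The largest difference, of 7.99 percentage points for exon B for sudemycin-treated U2AF1(S34F) against vehicle-treated U2AF1(WT) mice, came from groups that did not overlap and had the smallest exact p that 5 against 5 can give, 0.00794, and an adjusted p of 0.119. Measured instead as a share of all Lamp2 junction reads, the junction to exon A fell from 4.81 ± 1.15% to 2.85 ± 0.61% in that comparison, with a relative usage of −0.76 on the log2 scale (edgeR adjusted p = 0.0130, and 0.113 without sudemycin-treated U2AF1(S34F) mouse 2). Between the genotypes its adjusted p was 0.130 under vehicle, but 0.0933 without U2AF1(WT) mouse 1 and 0.0827 without U2AF1(S34F) mouse 5, and 0.175 under sudemycin D6, but 0.0666 without U2AF1(WT) mouse 9 (edgeR). Leaving out 1 mouse also moved the last-exon tests the other way, since without vehicle-treated U2AF1(WT) mouse 1 the exon A share differed between the genotypes under vehicle at an adjusted p of 0.0298 (exact permutation test).

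**Figure D5:**
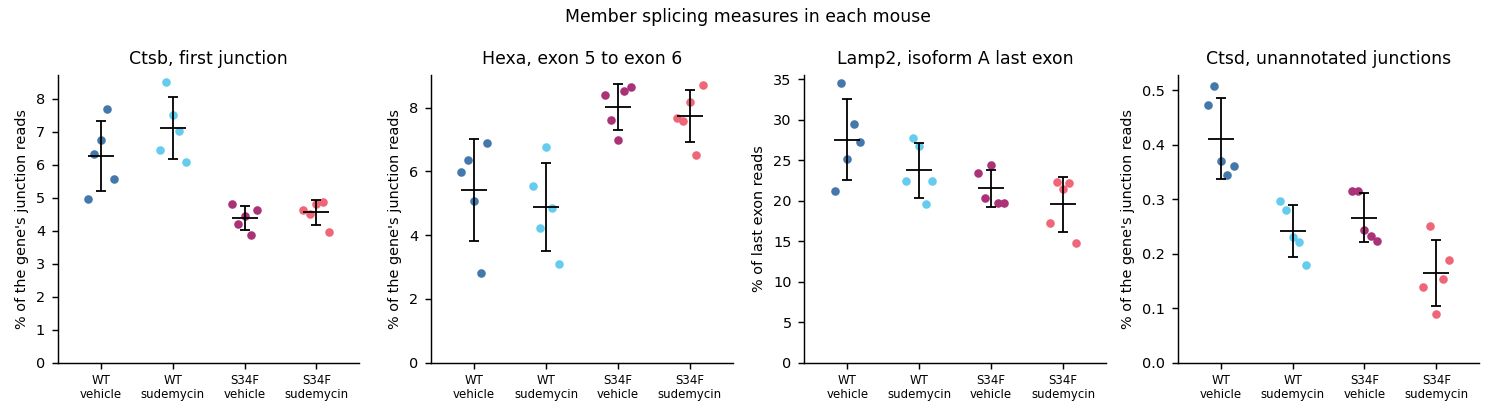
Share of junction reads in each mouse (points) of the 4 groups (x axis) with mean and SD (n = 5) for Ctsb exon 1 to 2, Hexa exon 5 to 6, the last exon A of Lamp2 among its last exons, and unannotated junctions of Ctsd (y axes in %, from 0). The Ctsb share lies at 3.87 to 4.85% in the U2AF1(S34F) mice and at 4.95 to 8.49% in the U2AF1(WT) mice.

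Reads on junctions outside the annotation were a small part of each member, 2.35 ± 0.36% in Hexa, 1.71 ± 1.36% in Gla and at most 0.55% on average in the other 6 genes in vehicle-treated U2AF1(WT) mice (SD, n = 5). In 4 of 40 tests this share differed at an adjusted p of 0.0794, each with the smallest exact permutation p possible, 0.00794. The share of Ctsb rose with sudemycin in U2AF1(WT) mice, from 0.0321 ± 0.0150% to 0.146 ± 0.088%. That of Ctsd fell with sudemycin in U2AF1(WT) mice, from 0.411 ± 0.074% to 0.242 ± 0.048%, and was lower in vehicle-treated (0.266 ± 0.045%) and sudemycin-treated (0.164 ± 0.060%) U2AF1(S34F) mice than in vehicle-treated U2AF1(WT) mice. At this smallest p, a call among 40 tests needs at least 4 of them to reach it together, so the 4 calls depend on each other. Their groups did not overlap, and leaving out a mouse cannot change that. No dependence on 1 mouse is therefore read from the losses that follow. The 4 calls were lost without any 1 vehicle-treated U2AF1(WT) mouse (exact permutation test, adjusted p 0.106 to 0.212). That of Ctsd under vehicle was also lost without U2AF1(S34F) mouse 5, 7 or 11 (0.127 to 0.159). With junctions of at least 10 reads on average alone, none of the 40 tests passed, with an adjusted p of 0.106 to 0.222 for these 4.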

How the data were processed

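RNA was measured by stranded total RNA sequencing of bulk bone marrow from 20 mice. The authors aligned paired reads of 126 bases to mm9 with TopHat2 2.0.8 and deposited a table of read counts per gene and a table of read counts per splice junction, both not normalized. The counting tool and its strand setting are not given in the sources used here. The position, strand and annotation columns of the junction table were deposited by the authors as labels. Samples were grouped by their labels, and no 2 mice of a group agreed within sampling noise (lowest chi-square per degree of freedom 19.0). Total counts were 41145892 to 62138138 per mouse for genes and 34384214 to 64813149 for junctions. The number of mice limits the precision, and since donors were pooled, p-values measure the spread between recipients, which may be partly technical.

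Genes were tested with edgeR 4.0.16 (TMM factors, filterByExpr, robust quasi-likelihood fit, prior count 2) in R 4.3.3 at an FDR below 10%, the study's threshold, in 5 pairwise comparisons of 5 against 5 mice each and an interaction over all 20. CPM use the TMM factors. The relative usage of annotated junctions was tested with diffSpliceDGE of edgeR over all junctions. Shares of the Lamp2 last exons and of unannotated junctions were compared by two-sided exact permutation tests (scipy 1.17.1), adjusted by Benjamini-Hochberg over 15 and 40 tests. Adjusted p-values otherwise cover all genes or junctions tested. The members and gene lists were chosen with earlier results of these data known. In each comparison the other lysosomal genes named are up to 3 that rose and 3 that fell with the largest fold change among those called, together with the MiT/TFE genes, the neighbours of Gla and Ctsl, and the 3 genes most correlated with each of that pair. One further gene that the rule named is not reported here. Tested on simulated data for sudemycin in U2AF1(WT) mice, the gene fit recovered 45.5% of genes changed by 0.58 on the log2 scale (14564 genes tested, 10.8% of calls false) and 71.0% of those changed by 1 (14561 genes tested, 8.97% false). For the genotypes under vehicle, the junction fit recovered 79.5% of junctions changed by 1 (114887 junctions tested), with 16.8% of calls false, above the FDR of 10% that was set. Alternatives were DESeq2 1.42.0, its size factors in edgeR, no filter on low counts, one model of all mice, a block for the replicate number, limma 3.58.1 for junctions, a minimum of 10 reads for unannotated junctions, and leaving out each mouse in turn.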

Additional observations from a re-analysis of the deposited data

Results flagged for a closer look

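In groups of 5 mice, a highest or lowest value was flagged when its gap to the nearest mouse, as a share of the group's range, exceeded Dixon's 95% critical value for 5 samples. Of 91 groups examined 9 were flagged, and chance flags about 1 in 20. Lamp2 in sudemycin-treated U2AF1(WT) mice had a gap of 0.741 of the range, with mouse 9 at 333 CPM and the next mouse at 280. The share of the last exon C of Lamp2 in vehicle-treated U2AF1(WT) mice had a gap of 0.7104, with 3.05% in one mouse and 1.51% in the next.

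The other 7 were shares of unannotated junctions, each with 1 high mouse. For Gla the gap was 0.870 of the range in vehicle-treated U2AF1(S34F) mice, at 3.17% against 0.413%, and 0.871 in sudemycin-treated U2AF1(S34F) mice, at 1.08% against 0.139%. For Hexa it was 0.774 in vehicle-treated U2AF1(S34F) mice, at 2.51% against 1.71%. For Gaa it was 1.0 in vehicle-treated U2AF1(WT) mice, at 0.262% against 0 in the other 4. For Ctsb it was 0.748 in vehicle-treated U2AF1(S34F) mice, at 0.0743% against 0.0261%, and 0.757 in sudemycin-treated U2AF1(S34F) mice, at 0.185% against 0.0515%. For Ctss it was 0.765 in sudemycin-treated U2AF1(S34F) mice, at 0.980% against 0.430%.

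The drug effect on Gla differed between the genotypes by 1.12 on the log2 scale, U2AF1(S34F) minus U2AF1(WT). This value helped to choose the gene and is given as a description.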

How the results depend on the processing

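No log2 fold change of a member changed direction under any alternative run in a comparison where that member was called. For sudemycin in U2AF1(WT) mice the 3 lysosomal genes called became 6 with DESeq2 and 9 in one model of all mice, and for sudemycin in U2AF1(S34F) mice the 22 became 13 in one model of all mice. For the interaction the 0 called became 2 with DESeq2. Member junctions called with limma were 5 under vehicle and 5 under sudemycin D6 between the genotypes, where edgeR called 2 and 2. The 4 unannotated shares called became 0 with junctions of at least 10 reads. The cause was not tested.

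Leaving out 1 mouse gave 2 to 5 lysosomal genes for sudemycin in U2AF1(WT) mice (5 without vehicle-treated mouse 2) and 13 to 26 for sudemycin in U2AF1(S34F) mice (14 without vehicle-treated mouse 1 and 13 without sudemycin-treated mouse 10). It gave 53 to 75 between the genotypes under vehicle, 42 to 59 under sudemycin D6, 60 to 86 for sudemycin-treated U2AF1(S34F) against vehicle-treated U2AF1(WT) mice, and 0 to 3 for the interaction (3 without vehicle-treated U2AF1(S34F) mouse 5). Member junctions called were 0 to 0 for both drug comparisons, 0 to 4 under vehicle (0 without U2AF1(WT) mouse 4 or U2AF1(S34F) mouse 11), 1 to 4 under sudemycin D6 and 1 to 3 in the remaining comparison. Lamp2 last-exon shares called were 0 to 6 (4 without vehicle-treated U2AF1(WT) mouse 1, 6 without sudemycin-treated U2AF1(WT) mouse 10 and 5 without sudemycin-treated U2AF1(S34F) mouse 6) and unannotated shares 0 to 5.

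Replicate numbers shared by the genotypes did not pair the mice, with correlations of deviations of −0.07 to 0.19 under vehicle and −0.18 to 0.37 under sudemycin D6. With a replicate block 50 lysosomal genes were called under vehicle and 42 under sudemycin D6, where the same mice without the block gave 58 and 41. With the block, fitted on fewer mice, the stefin gene Stfa2 was at 1.84 under vehicle (edgeR adjusted p = 0.118). Gla, with 613 to 1576 counts per mouse, sets the limit on depth for its junctions.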
